A study of Mus musculus with 24 samples.

Results

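The 10 genes described here, Vim, Acta2, Tagln, Cnn1, Myl9, Tpm1, Tpm2, Actn1, Flna and Palld, encode proteins of the contractile cytoskeleton and were followed among the 35976 genes of each table. They were chosen by name as cytoskeletal genes that respond to force carried to the nucleus, and all 10 have a row in every table. The libraries are RNA sequencing of Sun1 knockout and control cells of CT26, a transplantable mouse colon carcinoma line grown here in BALB/c mice. Sun1 encodes an inner nuclear membrane protein of the LINC complex, the bridge between the nuclear lamina and the cytoskeleton. Whole subcutaneous tumors taken at day 14 gave 7 Sun1 knockout libraries and 8 libraries of control line 1, whose labelled genotype is wild type. Tumor cells purified from day 14 tumors with a tumor cell isolation kit gave 2 knockout libraries, 2 of control line 1 and 2 of control line 2. Cells cultured in RPMI medium with serum gave 1 knockout library and 1 of each control line. All groups are CT26, and the labels name a single knockout line, so loss of Sun1 and other traits of this line cannot be told apart.

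Total expected counts ranged from 14140769 to 24651279 per tumor library, from 17068356 to 22593612 per purified library and from 18832201 to 20716917 per cultured library. Every knockout library had less Sun1 mRNA than all control libraries of its setting, with log2 fold changes of -1.63, -1.75 and -1.79 in tumors, purified cells and culture (edgeR adjusted p = 4.56e-14, 0.000401 and 0.150). The labelled cell type is colon cancer. The epithelial adhesion gene Epcam and the keratin gene Krt19 had 0 counts in all 9 libraries of purified and cultured cells. Cdh1 reached at most 0.119 CPM (read counts scaled to a common library size) there. Other epithelial markers were present, and 11 of the 13 listed were detected over these 9 libraries. The 13 markers summed to 99.9 to 222 CPM there, against 43.7 to 179 CPM in whole tumors. Summed leukocyte markers measured 716 to 2057 CPM in whole tumors and 5.39 to 26.2 CPM in these 9 libraries. Summed endothelial markers measured 76.9 to 153 CPM in whole tumors and 0.382 to 2.20 CPM in these 9 libraries. Whole tumors thus hold RNA of host cells, and within them fewer cells of a type and less RNA per cell cannot be told apart.

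Stress fibres are bundles of actin filaments and myosin II that pull on focal adhesions, the integrin contacts with the matrix. The LINC complex carries such pulling force to the nuclear envelope. Free actin monomer holds the coactivators MRTF-A and MRTF-B in the cytoplasm, and actin polymerisation releases them to act with serum response factor, SRF, at CArG boxes in the promoters of many contractile genes. In tumors Acta2, Tagln, Cnn1 and Myl9 are known as genes of smooth muscle cells, pericytes and myofibroblasts, whereas Vim, Flna and Actn1 are used by most mesenchymal and many cultured cells.

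The members fall into structural classes. Vim encodes vimentin, an intermediate filament protein of mesenchymal cells and thus no actin-binding bundle protein; it lies on chromosome 2 from 13574311 to 13582826 (GRCm38, all gene coordinates below likewise). Palld (chromosome 8, 61511431 to 61902707) encodes palladin, a scaffold that binds alpha-actinin along actin bundles. Actn1 (chromosome 12, 80167542 to 80260420) encodes the crosslinker alpha-actinin 1, and Flna (chromosome X, 74223461 to 74249854) encodes filamin A, which joins actin filaments into networks and ties them to membrane receptors. Tpm1 (chromosome 9, 67022590 to 67049672) and Tpm2 (chromosome 4, 43513726 to 43523583) encode tropomyosins, coiled coils that lie along actin filaments. Acta2 (chromosome 19, 34240336 to 34255585) encodes smooth muscle alpha-actin, and Myl9 (chromosome 2, 156775408 to 156781657) a regulatory light chain of myosin II. Tagln (chromosome 9, 45929628 to 45936058) encodes transgelin and Cnn1 (chromosome 9, 22099221 to 22109221) calponin 1, both actin-binding proteins of smooth muscle. Expected counts of Tagln were not whole numbers in 23 of 24 libraries (beyond 0.005), so part of its reads was shared with other features and its values are uncertain. The other 9 members had whole counts in all 24 libraries. The annotation behind the tables lists 28 transcripts for Tpm1 and 10 for Palld, and the gene values used here do not resolve them.

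RefSeq promoter windows (GRCm38.p6, searched over the 250 bases before a start site) were found for 9 of the 10 members, in 11 windows. An exact CArG box on either strand occurred in 1 member, Myl9, with its first base at position -161 from the start site, and in 1.47% of 32851 mouse windows. Allowing 1 mismatch in the outer bases, 4 members held a box (Myl9, Palld at -47, Flna at -44, and Tpm1 at -221 and -80), against 12.4% of all windows. CATTCC, the MCAT motif of TEAD factors, occurred on either strand in 4 members and in 12.6% of windows, and GGGCGG, the GC box, in 6 members and in 32.7% of windows. A member was counted if any of its windows held the motif, while the shares are per window. Palld had several windows, and its CArG match, CATTCC and GGGCGG each lay in a different one. These matches describe letters and not occupied sites. The stretches below are shown because Palld, Flna, Myl9 and Cnn1 behaved differently in the data. Palld was higher and Flna lower in knockout tumors, Myl9 was seen almost only in whole tumors, and Cnn1 stayed near 0 counts in every setting. Each begins 250 bases before the start site, and all but that of Palld end short of it. Capitals mark the CArG match, of which Cnn1 has none in its window.
Palld, chr8:61902708-61902957, minus strand: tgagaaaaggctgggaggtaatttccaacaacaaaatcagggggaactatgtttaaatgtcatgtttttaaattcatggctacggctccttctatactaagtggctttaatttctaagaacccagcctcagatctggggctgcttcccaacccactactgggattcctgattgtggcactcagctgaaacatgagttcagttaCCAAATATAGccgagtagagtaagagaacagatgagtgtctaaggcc
Flna, chrX:74246556-74246784, minus strand: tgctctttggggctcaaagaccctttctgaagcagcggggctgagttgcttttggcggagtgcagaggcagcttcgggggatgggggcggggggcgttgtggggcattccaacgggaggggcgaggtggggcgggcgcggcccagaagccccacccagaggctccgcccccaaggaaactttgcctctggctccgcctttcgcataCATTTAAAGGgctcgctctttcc
Myl9, chr2:156775214-156775407, plus strand: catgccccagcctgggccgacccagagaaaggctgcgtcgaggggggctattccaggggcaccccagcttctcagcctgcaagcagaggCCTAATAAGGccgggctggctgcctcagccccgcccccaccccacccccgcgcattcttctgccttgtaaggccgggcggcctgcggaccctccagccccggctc
Cnn1, chr9:22099003-22099215, plus strand: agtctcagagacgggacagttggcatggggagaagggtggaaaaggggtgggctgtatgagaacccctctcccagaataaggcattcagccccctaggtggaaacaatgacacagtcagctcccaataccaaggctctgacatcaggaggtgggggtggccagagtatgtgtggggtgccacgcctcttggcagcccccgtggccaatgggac

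Per unit of transcript length the members spanned the range from among the most abundant mRNAs to undetected ones. In deposited TPM (relative transcript abundance, adjusted for length) Vim had a median of 3246 TPM in knockout tumors and 4775 TPM in control tumors. Tpm1 followed with 291 TPM in knockout tumors and 312.5 TPM in control tumors, then Flna with 129 and 151 TPM and Actn1 with 46.0 and 55.3 TPM, in the same order of groups. The order Vim, Tpm1, Flna, Actn1, Tpm2, Palld, Acta2, Tagln held by median in all 5 purified and tumor groups and over the 3 cultured libraries. Among the first 5 of these, ranges of neighbours did not overlap in any of the 6 sets. The ranges of Tpm2 and Palld overlapped in knockout tumors, with a highest value of 13.55 TPM for Palld above the lowest one of Tpm2. Those of Palld and Acta2 overlapped in control tumors, at 8.01 to 11.89 TPM and 3.02 to 9.35 TPM. Those of Acta2 and Tagln overlapped in purified cells of control line 1, at 0.18 to 0.55 TPM and 0.18 to 0.43 TPM. Acta2 overlapped with Tagln, and Tagln with Myl9, in both tumor groups, with medians of 4.78, 4.51 and 1.84 TPM in knockout tumors and 4.39, 4.31 and 1.54 TPM in control tumors, and Cnn1 had a median of 0 in each and lay below Myl9 without overlap.

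**Figure D1:**
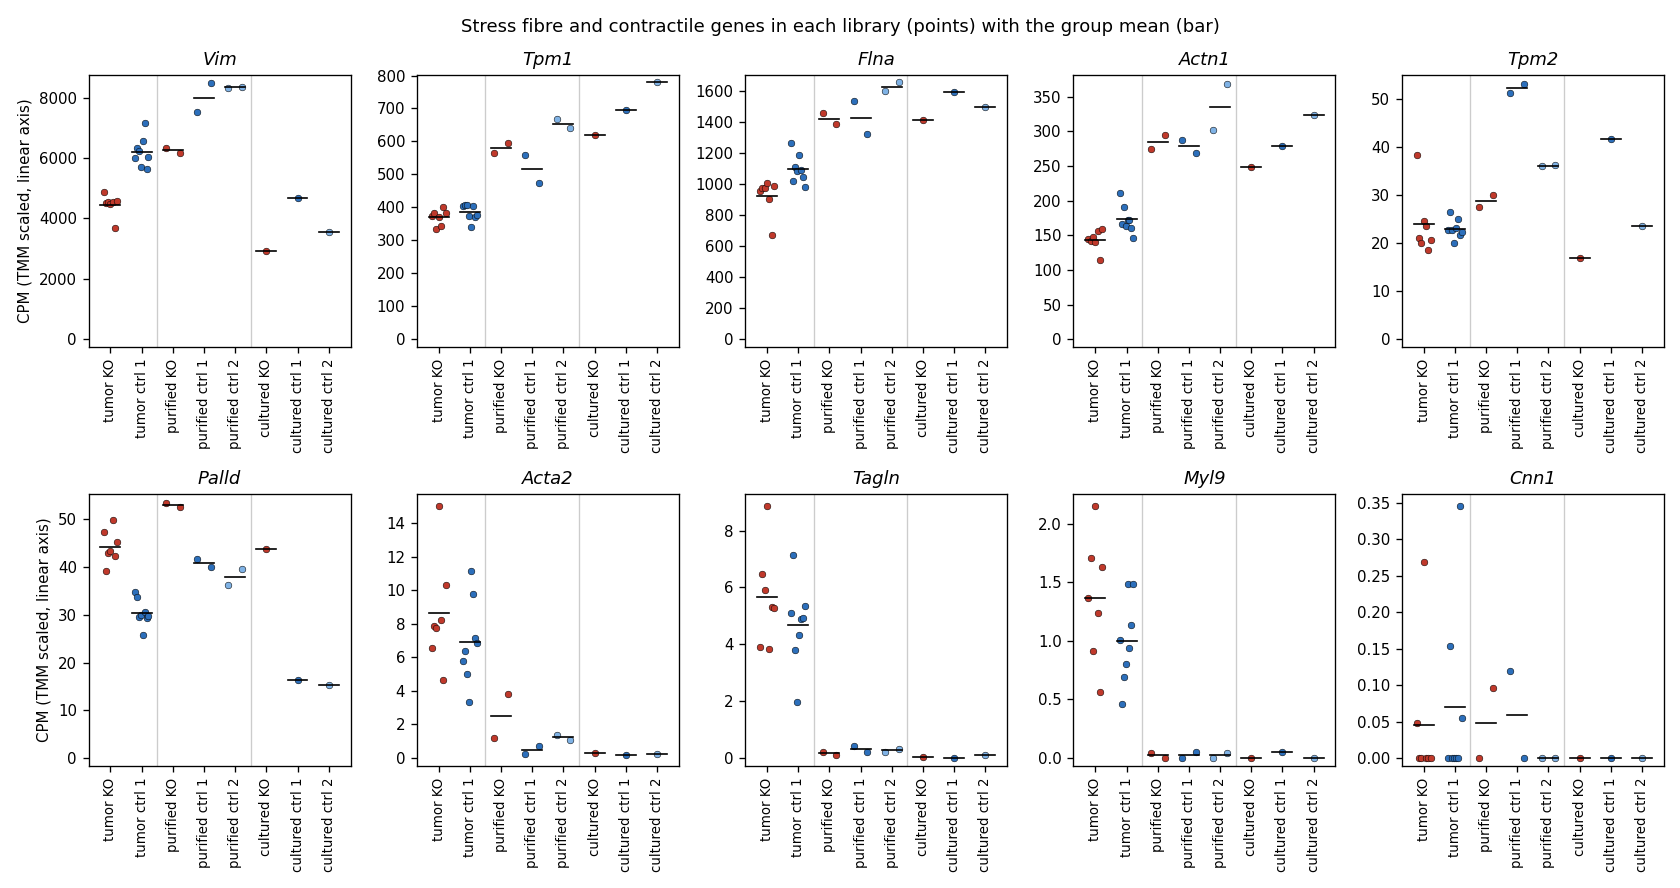
Expression of each of the 10 genes in each of the 24 libraries, as CPM with TMM scaling on a linear axis that starts at 0 (points), by setting and line, with the group mean as a bar (knockout red, control line 1 dark blue, control line 2 light blue). Vim sits at 3697 to 4858 CPM in knockout tumors and 5629 to 7161 CPM in control tumors, while Tagln and Myl9 stay under 0.42 CPM in every purified and cultured library.

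The first comparison asks how knockout tumors, host cells included, differ in the 10 genes from control tumors. Palld was higher, and Vim, Actn1 and Flna were lower, in knockout tumors. The tropomyosins and the smooth muscle genes Acta2, Tagln and Myl9 were not called, and Cnn1 had too few counts to test. Thus 4 of 9 tested members passed edgeR's quasi-likelihood test at an adjusted p under 0.05, 1 higher and 3 lower, where 37.1% of all 13752 genes tested passed, 18.1% higher and 19.0% lower. A share of 4 in 9 is near that background. The median log2 fold change was 0.06 over the members tested and 0.01 over all genes tested. Whether replicates are separate animals is not stated in the labels, so p-values measure the spread between these libraries.

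Vim had a lowest value of 3697, a median of 4529 and a highest value of 4858 CPM in the 7 knockout tumors, and 5629, 6130 and 7161 CPM in the 8 control tumors. All knockout tumors lay below all control tumors. The log2 fold change was -0.48 ± 0.07 (SE, edgeR adjusted p = 2.56e-05), or 1.39-fold lower. Palld had 39.2, 43.4 and 49.8 CPM (lowest, median, highest) in knockout tumors and 25.9, 29.9 and 34.8 CPM in control tumors. Here all knockout tumors lay above all control tumors, and the log2 fold change was 0.54 ± 0.07 (edgeR adjusted p = 4.06e-06), or 1.46-fold higher. For Vim and Palld alike, the share of all genes whose tumor groups lay apart in this way was not counted.

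The crosslinker genes moved less and their ranges overlapped. Actn1 had 114.5, 145 and 160 CPM (lowest, median, highest) in knockout tumors and 146, 169 and 211 CPM in control tumors, and the log2 fold change was -0.27 ± 0.08 (edgeR adjusted p = 0.00892). Of the 7 knockout tumors, 4 lay below every control tumor. Flna had 671.5, 973 and 1006 CPM in knockout tumors and 980, 1087 and 1263 CPM in control tumors, and the log2 fold change was -0.25 ± 0.08 (edgeR adjusted p = 0.0167). Here 5 of the 7 knockout tumors lay below every control tumor. Knockout tumor 6 was the lowest in Vim, Actn1 and Flna alike. Without it the log2 fold changes were -0.44 for Vim, -0.22 for Actn1 and -0.18 for Flna, each still called (edgeR adjusted p = 2.96e-05, 0.0155 and 0.0202). That tumor also had the lowest summed leukocyte, endothelial, mural and skeletal muscle markers of the knockout tumors, at 888, 97.4, 114 and 4.32 CPM, and their part in its low values was not tested.

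Both tropomyosin genes gave close values in the 2 tumor groups. Tpm1 had 336, 375 and 400 CPM in knockout tumors (lowest, median, highest) and 342, 391 and 408 CPM in control tumors, and its log2 fold change was -0.06 ± 0.06 (edgeR adjusted p = 0.417). Tpm2 had 18.6, 21.2 and 38.4 CPM in knockout tumors and 20.01, 22.8 and 26.4 CPM in control tumors, and the log2 fold change was 0.06 ± 0.12 (edgeR adjusted p = 0.742). Its highest value came from knockout tumor 1. In that tumor 12 skeletal muscle markers summed to 163 CPM, against a median of 23.2 CPM over all knockout tumors and of 5.20 CPM, at most 17.3 CPM, in control tumors. Without knockout tumor 1 the log2 fold change of Tpm2 was -0.10 (edgeR adjusted p = 0.352). Tpm2 is also a tropomyosin of skeletal muscle, and the part of muscle tissue in its level was not tested.

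**Figure D2:**
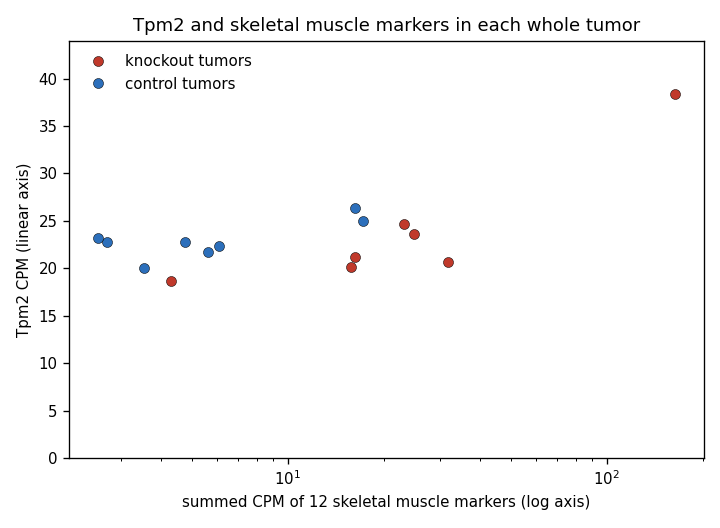
Tpm2 in CPM (linear axis) against the summed CPM of 12 skeletal muscle markers (log axis), 1 point per whole tumor, 7 knockout and 8 control. Knockout tumor 1 stands apart on both axes, at 38.4 CPM of Tpm2 and 163 CPM of markers.

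The smooth muscle genes were low and variable in whole tumors. Acta2 had 4.64, 7.87 and 15.03 CPM (lowest, median, highest) in knockout tumors and 3.32, 6.63 and 11.1 CPM in control tumors, and the log2 fold change was 0.31 ± 0.25 (edgeR adjusted p = 0.337). Tagln had 3.83, 5.33 and 8.86 CPM in knockout tumors and 1.97, 4.91 and 7.15 CPM in control tumors, with 0.27 ± 0.21 on the log2 scale (edgeR adjusted p = 0.325). Myl9 had 0.564, 1.36 and 2.15 CPM in knockout tumors and 0.463, 0.970 and 1.49 CPM in control tumors, with 0.45 ± 0.29 on the log2 scale (edgeR adjusted p = 0.227). In each of the 3 genes the groups overlapped over most of their range, and the coefficient of variation was between 30.4% and 38.5% in each tumor group. Cnn1 had 6 counts in all, in 2 of 7 knockout tumors, and 11 counts in 3 of 8 control tumors. Of 9 tested mural and smooth muscle markers 1 was called in tumors, where 37.1% of all genes were. It was Des (desmin, also a muscle gene), at 1.95 ± 0.67 higher on the log2 scale (edgeR adjusted p = 0.0350). Sums over the mural and smooth muscle markers measured 114, 138 and 178.5 CPM (lowest, median, highest) in knockout tumors and 97.0, 125 and 176.5 CPM in control tumors.

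Several host cell markers moved with genotype, beside a background of 18.1% of all genes higher and 19.0% lower. Of 12 leukocyte markers tested 5 were higher and none lower in knockout tumors, and their sum had a median of 1567 CPM (888 to 2057) in knockout tumors and 1193 CPM (716 to 1710) in control tumors. Of 10 endothelial markers 4 were higher and none lower, with a median sum of 121 CPM (97.4 to 153) in knockout tumors and 85.2 CPM (76.9 to 102) in control tumors. None of these 2 lists' defining markers is at 0 in either tumor group. Of 8 skeletal muscle markers tested 6 were higher, and of 13 fibroblast markers 4 were higher and 3 lower, which is near that background. The fibroblast list summed to 2537 to 3883 CPM in knockout tumors and 2806 to 3844 CPM in control tumors, but also to 1735 to 6489 CPM in purified and cultured cells, so it does not set host fibroblasts apart from CT26 cells. With the mean log2 level of Ptprc and Pecam1 as a covariate, none of the 4 calls remained. Vim was then at -0.53 and Palld at 0.43 (edgeR adjusted p = 0.0687 and 0.131), Actn1 at -0.16 and Flna at -0.23, and 208 genes in all were called where 5107 were called without it. With 4 mural markers as a covariate the members called were still 4. The whole mural list does not set host cells apart either, since it summed to 65.2 to 139 CPM in purified and cultured cells, most of it Pdgfrb; Rgs5, another of the 4, measured 6.14 to 16.3 CPM in knockout tumors, 9.46 to 18.2 CPM in control tumors and at most 0.311 CPM in those cells. The numbers of the tumors in the deposited tables fall into 2 runs. In the first, with 4 knockout and 3 control tumors, Vim, Actn1 and Palld were called, at -0.43, -0.40 and 0.40. In the second, with 3 knockout and 5 control tumors, Vim and Palld were called, at -0.54 and 0.66, and Actn1 and Flna measured -0.18 and -0.33 (edgeR adjusted p = 0.273 and 0.0723).

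**Figure D3:**
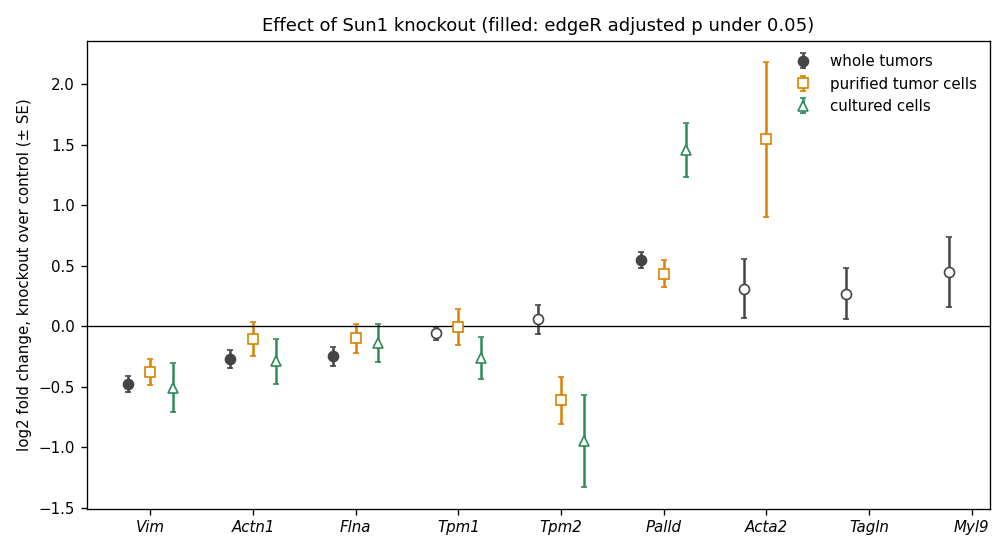
Log2 fold change of each member, knockout over control, in whole tumors (circles), purified tumor cells (squares) and cultured cells (triangles), with standard errors; filled symbols have an edgeR adjusted p under 0.05. Only in tumors are symbols filled, for Vim, Actn1, Flna and Palld, while Palld lies above 0 and Vim below 0 in all 3 settings.

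The second comparison asks for the same effect in tumor cells freed of most host cells. In purified cells Palld was at 0.44 and Vim at -0.38 on the log2 scale, and neither passed the test over all genes. The knockout values of both lay outside the range of the 4 control libraries. With so few libraries this can arise without a difference, and the share of all genes that did so was not counted. Of 7 members tested 0 were called, where 4.55% of 12476 genes were, 2.26% higher and 2.29% lower. Without knockout library 1 or 2 the genes called numbered 108 and 72, and still no member. At an unadjusted p under 0.05 there were 4 members and 2718 genes, and DESeq2 called 3 members (Palld, Vim and Tpm2) and 1205 genes. The median log2 fold change was -0.10 over the 7 members and -0.01 over all genes tested.

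Vim measured 6347 and 6172 CPM in the knockout libraries, against 7514 and 8476 CPM in control line 1 and 8333 and 8364 CPM in control line 2. The log2 fold change was -0.38 ± 0.11 (edgeR adjusted p = 0.0912). Palld measured 53.5 and 52.7 CPM in the knockout libraries, against 41.8 and 40.1 CPM in control line 1 and 36.2 and 39.6 CPM in control line 2. Its log2 fold change was 0.44 ± 0.11 (edgeR adjusted p = 0.0577). Set against either control line alone, both genes were called: Vim at -0.35 (adjusted p = 0.0195) against line 1 and -0.40 (0.0483) against line 2, and Palld at 0.38 (0.0197) against line 1 and 0.50 (0.0170) against line 2, all by edgeR. These single-line fits called 2896 and 2322 genes in all, so calls were more frequent over all genes too. The authors' deposited table gives the same comparison as control over knockout, with Vim at 0.38 (adjusted p = 0.0129), Tpm2 at 0.63 (0.0262) and Palld at -0.46 (0.00942).

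Tpm2 depended on the control line. It measured 27.5 and 30.0 CPM in the knockout libraries, against 51.2 and 53.2 CPM in control line 1 and 36.0 and 36.3 CPM in control line 2. The knockout libraries lay below both lines, and the lines did not overlap each other, a pattern whose share over all genes was not counted. Over both lines its log2 fold change was -0.61 ± 0.19 (edgeR adjusted p = 0.110). It was -0.86 against line 1 alone (edgeR adjusted p = 0.000213) and -0.31 against line 2 alone (0.114). Control line 2 was itself below control line 1 by -0.54 ± 0.12 (edgeR adjusted p = 0.00799), the only one of 7 members called between the lines, where 15.7% of genes were (6.73% higher and 9.01% lower in line 2); without library 2 of control line 1 the call was lost (-0.52, adjusted p = 0.0688), and without library 1 or 2 of that line 791 and 853 genes were called in place of 1964. Both control lines carry Sun1.

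The other members gave no call against both control lines together. Acta2 measured 1.22 and 3.83 CPM in the knockout libraries, against 0.239 and 0.726 CPM in control line 1 and 1.36 and 1.10 CPM in control line 2, and the log2 fold change was 1.54 ± 0.64 (edgeR adjusted p = 0.202). Against line 2 alone it was 1.05 and was not called (edgeR adjusted p = 0.212). Acta2 had 27 and 80 counts in the knockout libraries and 4 and 14 in control line 1. Against line 1 alone it thus passed the filter through the knockout libraries alone, so its log2 fold change of 2.34 is given without a test. Knockout library 2, the higher one, held 80 of its 175 counts over 6 libraries. In that library skeletal muscle markers summed to 42.02 CPM, against 5.12 CPM in the other knockout library and 3.40 to 6.07 CPM in controls, and their part in the Acta2 value was not tested. Tpm1 measured 565 and 596 CPM in the knockout libraries and 473 to 669 CPM in controls (log2 fold change -0.01 ± 0.15). Actn1 measured 274 and 294 CPM in the knockout libraries and 269 to 369 CPM in controls (-0.11 ± 0.14), and Flna 1456 and 1385 CPM in the knockout libraries and 1323 to 1656 CPM in controls (-0.10 ± 0.12). Their edgeR adjusted p-values were 0.987, 0.694 and 0.678. Tagln, Myl9 and Cnn1 stayed under 0.42 CPM in all 6 libraries and were not tested.

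The third comparison is of cells in culture, with 1 knockout library and 1 degree of freedom, and it assumes that the lone library varies as the controls do. Palld had 43.8 CPM in the knockout library, against 16.3 and 15.3 CPM in control lines 1 and 2, and the log2 fold change was 1.46 ± 0.22, or 2.75-fold (edgeR adjusted p = 0.348). It ranked 18 by p among 12175 genes. edgeR called 0 of 12175 genes and 0 of 6 members tested (background 0%), with 659 genes and 3 members at an unadjusted p under 0.05. DESeq2 called 44 genes, among them Palld (adjusted p = 0.0267), and the authors' deposited table has Palld at -1.41 as control over knockout (adjusted p = 0.0176). Vim had 2911 CPM in the knockout library, against 4676 and 3561 CPM in control lines 1 and 2 (-0.51 ± 0.20, edgeR adjusted p = 0.915). Tpm2 had 17.0 CPM in the knockout library, against 41.6 and 23.6 CPM (-0.95 ± 0.38, edgeR adjusted p = 0.916), and here again the control lines stood far apart. Tpm1 had 619 CPM in the knockout library, against 697 and 780 CPM in control lines 1 and 2. Actn1 had 248 CPM against 279 and 323 CPM, and Flna 1415 CPM against 1592 and 1498 CPM, in the same order. Over both lines the log2 fold changes of Tpm1, Actn1 and Flna were -0.27, -0.29 and -0.14.

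The size of the knockout effect was compared between settings by the interaction of setting and genotype. Between tumors and purified cells, with control line 1 in both, Tpm2 was the only member called of 9 tested, of which Tagln and Myl9 had next to no counts in purified cells, where 10.1% of 15033 genes were, 4.82% with a higher and 5.27% with a lower effect in tumors. Its effect was higher in tumors by 0.92 ± 0.24 (edgeR adjusted p = 0.0191). The call was lost without any 1 of the 4 purified libraries, with adjusted p from 0.0665 to 0.108 and differences of 0.85 to 0.97, and the genes called then numbered 546 to 842 in place of 1517. For Palld the difference was 0.17 ± 0.14 (edgeR adjusted p = 0.462) and for Vim -0.12 ± 0.14 (0.636). Between purified and cultured cells, a test added after the values were seen, 0 of 7 members and 0 of 13195 genes were called by edgeR (background 0%), with 1 member and 553 genes at an unadjusted p under 0.05. That member was Palld, whose effect was smaller in purified than in cultured cells by -1.02 ± 0.20 (edgeR adjusted p = 0.829). It ranked 6 by p among all genes, and DESeq2 called it (adjusted p = 0.0275, 11 genes in all).

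Purified cells were compared with cultured cells with line as a covariate. Vim, Palld and Tpm2 were higher and Tpm1 lower in purified cells, so 4 of the 6 members that could be tested in culture were called, where 41.9% of 13195 genes were, 21.0% higher and 20.9% lower. Vim measured 6172 to 8476 CPM in the 6 purified libraries and 2911 to 4676 CPM in the 3 cultured ones, with no overlap, and the log2 fold change was 1.04 ± 0.10 (edgeR adjusted p = 6.05e-06). The share of all genes without overlap between these settings was not counted. Palld measured 36.2 to 53.5 CPM in purified libraries and 15.3 to 43.8 CPM in cultured ones (0.93 ± 0.18, edgeR adjusted p = 0.00170). In the control lines alone it was 36.2 to 41.8 CPM after purification and 15.3 and 16.3 CPM in culture. Tpm2 rose by 0.57 ± 0.10 (edgeR adjusted p = 0.000636). Acta2 had 175 counts over the 6 purified libraries and 14 over the 3 cultured ones, with 0.239 to 3.83 CPM in purified libraries and at most 0.293 CPM in cultured ones. It passed the filter through the purified libraries alone, so no test is given. Tpm1 fell by 0.25 ± 0.09 (edgeR adjusted p = 0.0320), a call lost in 5 of the 9 fits that left out a library, with adjusted p up to 0.251. Actn1 and Flna gave 0.09 ± 0.09 and -0.00 ± 0.08 and were not called. Growth in a mouse, tissue dissociation and the isolation kit go with the purified setting and cannot be told apart.

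Whole tumors were set against purified cells of the same 2 lines. With both lines fitted together, Acta2 was higher in whole tumors by 2.44 ± 0.44 on the log2 scale (edgeR adjusted p = 7.67e-05). In the same fit 6 members were lower, where 64.0% of 15033 genes were called (35.1% higher and 28.9% lower). Tagln and Myl9, with at most 7 and 1 counts in a purified library, passed the filter through the tumors alone, so their counts are given without a test. Tagln had 734 counts over 7 knockout tumors and 7 over 2 purified knockout libraries, a ratio per total count of 35.4 (95% exact binomial interval 17.1 to 88.3). In control line 1 it had 728 counts over 8 tumors and 11 over 2 purified libraries, a ratio of 16.05 (8.92 to 32.3). Myl9 had 179 counts over 7 knockout tumors and 1 count over 2 purified knockout libraries, a ratio of 60.4 (10.7 to 2398). For control line 1 it had 155 counts over 8 tumors and 1 count over 2 purified libraries, a ratio of 37.6 (6.65 to 1494). The ratio of Acta2 was 3.55 (2.91 to 4.37) in the knockout line and 14.9 (9.41 to 25.3) in control line 1. These intervals cover counting error only. For Acta2 the interaction of setting and genotype was -2.02 ± 0.81 on the log2 scale and was not called (edgeR adjusted p = 0.123). Every tumor lay above every purified and cultured library in Tagln and in Myl9. In Acta2, 14 of 15 tumors did. The share of all genes with every tumor above these libraries was not counted. In Cnn1 tumors and purified cells could not be told apart, with a ratio of 1.01 (0.181 to 10.3) in the knockout line and 1.33 (0.291 to 12.4) in control line 1.

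The 6 members lower in whole tumors were the tropomyosins, the crosslinkers, Vim and Palld. Actn1 fell by 0.85 ± 0.08, Tpm2 by 0.78 ± 0.15, Tpm1 by 0.55 ± 0.06, Flna by 0.51 ± 0.08, Vim by 0.44 ± 0.07 and Palld by 0.35 ± 0.07 on the log2 scale, with edgeR adjusted p-values between 2.07e-09 and 0.000161. Actn1 measured 114.5 to 211 CPM in 15 tumors and 248 to 369 CPM in the 9 purified and cultured libraries, without overlap. Tpm1 measured 336 to 408 CPM in tumors and 473 to 780 CPM in those libraries, and Flna 671.5 to 1263 CPM in tumors and 1323 to 1656 CPM in those libraries, again without overlap. The share of all genes without overlap between tumors and these libraries was not counted. Vim, Palld and Tpm2 ranges of tumors lay within those of the 9 cell libraries.

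**Figure D4:**
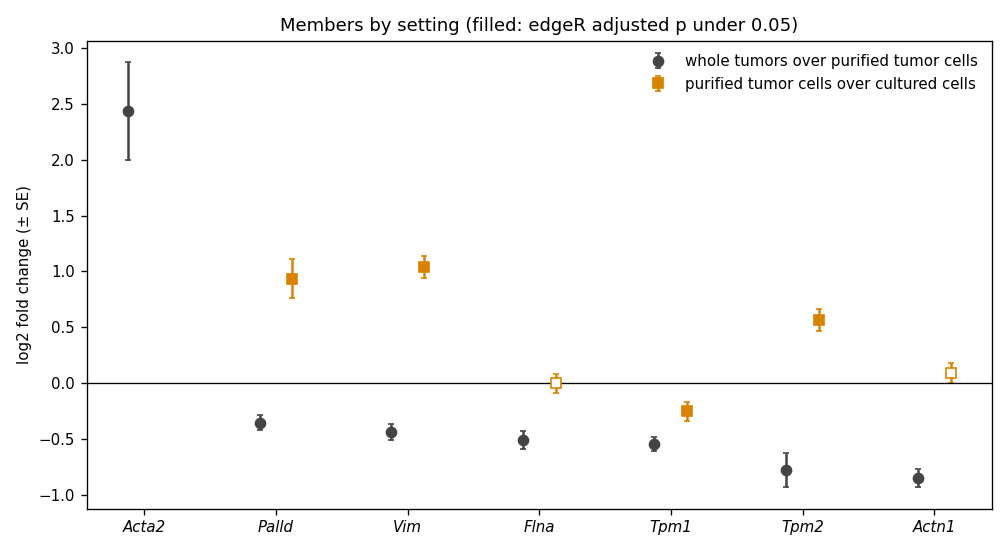
Log2 fold change with standard error of each member between settings, for whole tumors over purified cells (circles, both lines present in each) and for purified over cultured cells (squares); filled symbols have an edgeR adjusted p under 0.05. Genes that failed the count filter in the second setting of a pair are not drawn. Acta2 stands at 2.44 for tumors over purified cells, and the 6 other members drawn lie between -0.85 and -0.35.

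Among the partners of these genes, focal adhesion genes were the list with most calls in 1 direction in knockout tumors. Of 20 tested 13 were lower and none higher, where 19.0% of all genes were lower and 18.1% higher, with a median log2 fold change of -0.27 against 0.01 over all genes. In whole tumors over purified cells, 14 of the 20 were lower and 3 higher, where 28.9% of all genes were lower and 35.1% higher. The part of host cell content in the knockout calls of this list was not tested. Vcl, the gene of vinculin, which couples talin to actin, measured 150 to 211.5 CPM in knockout tumors and 236 to 273 CPM in control tumors (-0.52 ± 0.06, edgeR adjusted p = 3.14e-06). Fermt2, the gene of the integrin activator kindlin-2, measured 74.7 to 83.0 CPM in knockout tumors and 98.0 to 119 CPM in control tumors (-0.46 ± 0.05, adjusted p = 2.09e-06, edgeR). Parva, the gene of alpha-parvin, which links integrin-linked kinase to actin, was at -0.44 ± 0.06. In none of these 3 genes did the groups overlap. They were picked for a small p, and the share of all genes without overlap was not counted. In purified cells, where 4.55% of all genes were called, 1 of 19 was lower and none higher. It was Parva, with 249 and 272 CPM in the knockout libraries and 352 to 397 CPM in the 4 controls (-0.50 ± 0.11, edgeR adjusted p = 0.0333).

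Of 32 other actin bundle genes tested 5 were higher and 7 lower in tumors (median -0.05), a share near the 37.1% of all genes called. The heavy chain of nonmuscle myosin IIA, Myh9, measured 302 to 567 CPM in knockout tumors and 704 to 986 CPM in control tumors (-0.68 ± 0.11, edgeR adjusted p = 0.000124). Lima1, the gene of an actin bundler, was at -0.44 ± 0.07. Among those higher was Myh10, the heavy chain of nonmuscle myosin IIB, at 0.63. Myh10 measured 3.70 to 9.73 CPM in knockout tumors and 2.89 to 6.40 CPM in control tumors. In purified cells it measured only 0.136 to 0.239 CPM in knockout and at most 0.0597 CPM in control libraries. The part of host cells in its tumor values was not tested. In purified cells 1 of 30 was called, where 4.55% of all genes were. It was Mylk, the gene of myosin light chain kinase, with 21.4 and 26.2 CPM in the knockout libraries and 32.7 to 45.8 CPM in controls (-0.81 ± 0.17, edgeR adjusted p = 0.0329). Myh9 was at -0.56 ± 0.15 there (edgeR adjusted p = 0.0765).

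Upstream of the filaments the counts were these. Of 24 ROCK and actin turnover genes and their regulators 2 were higher and 5 lower in tumors, against 37.1% of all genes called in either direction. Among those lower were the formin gene Diaph3 at -0.29 ± 0.05 and the kinase gene Rock2 at -0.28 ± 0.05. In purified cells 1 of 24 was called, against 4.55% of all genes, and it was Arhgef1 at 0.48 ± 0.10 (edgeR adjusted p = 0.0341). Of 11 SRF and MRTF genes and targets tested 5 were lower and none higher in tumors, where 19.0% of all genes were lower and 18.1% higher. The 5 include Vcl and Flna, which other lists hold too. They also include Mkl1 and Mkl2, the genes of MRTF-A and MRTF-B, at -0.38 and -0.30, and Scai, the gene of an MRTF repressor, at -0.41 ± 0.07. Scai measured 23.8 to 34.6 CPM in knockout tumors and 34.7 to 40.3 CPM in control tumors. In purified cells 0 of 10 were called by edgeR, where 4.55% of all genes were. At an unadjusted p under 0.05 there were 4 of the 10, and 2718 of all 12476 genes. Among the 4 was Srf at 0.43 ± 0.11 (edgeR adjusted p = 0.0618).

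Of 6 intermediate filament genes tested beside Vim, 2 were higher and 1 lower in tumors, where 37.1% of all genes were called in either direction. Nes, the gene of nestin, which assembles with vimentin, measured 125 to 160 CPM in knockout tumors and 99.5 to 116 CPM in control tumors (0.40 ± 0.06, edgeR adjusted p = 3.03e-05). Nes measured 202 and 244 CPM in the knockout libraries of purified cells and 95.6 to 147 CPM in their controls (0.99 ± 0.17, adjusted p = 0.0139, edgeR). Nes thus lay on the opposite side of control from Vim in both settings. The keratin gene Krt18 was at -5.37 in tumors and -6.57 in purified cells, with 0.335 and 0.544 CPM in the purified knockout libraries and 27.2 to 55.5 CPM in controls.

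**Figure D5:**
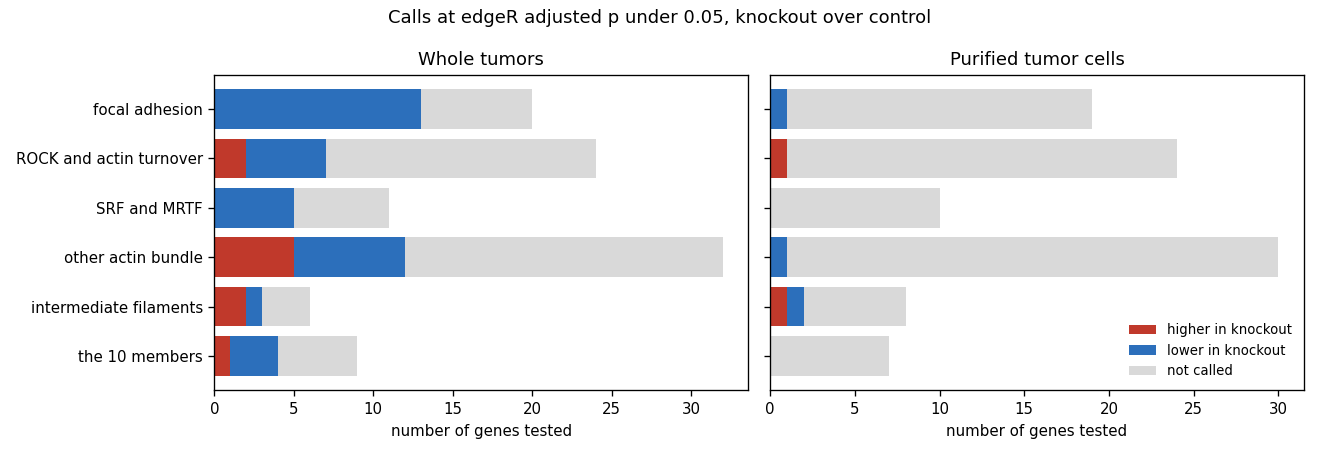
Number of tested genes per list that were higher in knockout (red), lower in knockout (blue) or not called (grey) at an edgeR adjusted p under 0.05, in whole tumors (left) and purified tumor cells (right). In tumors 13 of 20 focal adhesion genes are lower and none higher, and in purified cells at most 2 genes of any list are called.

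Across the 15 tumors, with genotype means removed, none of 36 pairs of members was correlated at an adjusted p under 0.05. Actn1 and Flna came nearest, with Pearson's r = 0.80 (permutation p = 0.00213, adjusted 0.0767) and a Spearman coefficient of 0.67 (permutation p = 0.00989, adjusted 0.195). Without the 2 tumors farthest from the median of Actn1, r was 0.58. Acta2 and Myl9 had r = 0.65 and a Spearman coefficient of 0.67 (permutation p = 0.0127 and 0.0111, adjusted 0.228 and 0.195), and r = 0.64 without the 2 farthest tumors. Among 10701 genes at 5 CPM or more, the gene most like Actn1 over these tumors was Pip4k2b (r = 0.96), and the genes most like Flna were Flii (0.96), Ankrd52 (0.96) and Cbl (0.95). The gene most like Palld was the formin gene Diaph1 (r = 0.88) and the gene most like Vim was Xkr5 (0.87). These likenesses are the highest of many and come from libraries that differ in depth and host content.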

How the data were processed

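Per the labels' protocols, mRNA was taken from total RNA and read from both ends on an Illumina instrument. Per the submitters' processing notes, FastQC, STAR, RSEM and DESeq2 were used with the mm10 genome, whose versions are not given in the sources used here. Every library has a deposited RSEM table: the expected count per gene, unscaled between libraries, and TPM and FPKM, both scaled for length and depth, per the file headers. The 3 comparisons the authors deposited hold a signal (normalised counts averaged over libraries), log2 fold changes, a score (the Wald statistic) and a p-value, per the file headers; Sun1 is positive in all 3, so they are control over knockout. FPKM values were not used, and TPM entered no test.

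All 24 libraries were mapped from the labels, and 0 columns of sample values were left unmapped. Rounded expected counts entered edgeR (4.0.16, under R 4.3.3). Scaling was TMM, and two-sided quasi-likelihood F tests used robust dispersions. Low genes were removed by filterByExpr, with a minimum count of 10 and a minimum total of 15. The minimum count is taken as CPM at the median library size. It must be met in as many libraries as the smallest group of the fit holds. P-values were adjusted by Benjamini-Hochberg over all genes tested, and called under 0.05. A fit held only the libraries of its comparison; both control lines form 1 arm against the purified or cultured knockout. Standard errors are the absolute log2 fold change divided by √F. Printed CPM come from TMM factors over all 24 libraries. Depth was 14140769 to 24651279 expected counts per library, which leaves Cnn1 at no more than 7 counts in any tumor. The steps were tested on simulated data. Between libraries of the same group the chi-square per gene was at least 7.38, so none was a repeat of another.

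The 10 members and all gene lists were chosen with earlier results of these data known. All members are named. From other lists the 3 genes with the smallest p in tumors and the 2 in purified cells were taken; the text names a part of them, and Myh10 and Mkl1 were named after their values were seen. Correlations used log2 CPM (prior count 2) and 100000 permutations. Gene coordinates and promoter windows are from RefSeq (GRCm38.p6). Alternatives were other scalings, no filter, DESeq2 1.42.0, a replicate block, single control lines, runs of tumor numbers, marker covariates and leaving out each library.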

Additional observations from a re-analysis of the deposited data

Results flagged for a closer look

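Among 20 combinations of member and tumor group, 6 held a library far from the rest of its group. The cutoff gives about 1 in 20 for independent and normally spread values. Cnn1, at 0 counts in most tumors, does not meet this, and neither do genes measured in the same tumor, so no excess over chance is shown. Knockout tumor 6 was the lowest in Vim (3697 CPM), Actn1 (114.5 CPM) and Flna (671.5 CPM). Knockout tumor 1 was the highest in Tpm2 (38.38 CPM). Cnn1 was highest in knockout tumor 4 (0.2685 CPM) and in control tumor 7 (0.3456 CPM), which rest on 5 and 7 counts. The knockout effect on Tpm2 differed between tumors and purified cells by 0.92 on the log2 scale (0.9202, edgeR adjusted p = 0.0191).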

How the results depend on the processing

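In whole tumors 4 members were called under each other scaling, without the filter, with DESeq2, with the run or mural covariate, with the replicate block, and without any 1 of the 15 libraries (4 to 4 members; 4523 to 5158 genes). Run 1 alone gave 2760 genes, run 2 alone 2 members and 2140 genes, and the covariate of Ptprc and Pecam1 0 members and 208 genes. Same-numbered tumors did not deviate together (correlations from -0.21 to 0.33, and from -0.14 to 0.12 in purified cells), and no knockout tumor was most like the control tumor of its own number, so numbers were not taken as pairs. In purified cells the replicate block gave 0 members and 303 genes. There, no filter gave 1 member and 908 genes, and DESeq2 3 and 1205. Control line 1 alone gave 4 and 2896, with Acta2, which passed the filter there through the knockout libraries alone, among the 4. Control line 2 alone gave 2 and 2322. Without 1 library it was 0 members and 72 (without knockout library 2, and 108 without library 1) to 540 genes. In culture, library totals alone gave 8 genes, no filter 1 member (Palld) and 95 genes, and DESeq2 1 member and 44 genes.

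Between control lines, no filter and DESeq2 each gave 2 members (Tpm1 and Tpm2), and leaving out 1 library gave 0 to 2 members and 791 (without library 1 of control line 1) to 2215 genes. For the difference between tumors and purified cells, leaving out 1 library gave 0 to 1 member and 546 (without purified knockout library 2) to 1705 genes. For that between purified and cultured cells, no filter gave 7 genes, DESeq2 1 member and 11 genes, and leaving out 1 library 0 to 5 genes; the fit without the cultured knockout library cannot be made.

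Changes of sign touched values that no edgeR or DESeq2 fit involved called. Tpm1 in purified cells (main value -0.0059) was 0.0028 with DESeq2 size factors and with DESeq2, 0.0321 by library totals, 0.0013 without the filter, 0.1726 against control line 1 alone, and -0.0879 to 0.0653 without 1 library; Actn1 was 0.0324 against control line 1 alone. In tumors Tpm2 was -0.0981 to 0.1068 without 1 library. In run 2 Myl9, Tpm1 and Tpm2 were -0.0172, 0.0117 and -0.0927, and with the covariate of Ptprc and Pecam1 -0.0321, 0.003 and -0.3823. Without 1 library, Vim between control lines was -0.0299 to 0.1381, and Flna in purified over cultured cells -0.0455 to 0.0747. Likewise the difference between tumors and purified cells was -1.7506 to 2.8325 for Myl9, and that between purified and cultured cells -0.0616 to 0.3096 for Vim, -0.1158 to 0.6834 for Tpm2 and -0.0187 to 0.0836 for Flna. The cause of these changes was not tested.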
